A study of Mus musculus with 16 samples.

Results

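Checkpoint blockade at the lower radiation dose was examined by setting the 3 libraries of HKP1-bearing lungs that received an antibody against PD-1 at 4 Gy against the 2 that received control IgG at 4 Gy, chosen by their titles out of 16 libraries in the series. All 5 came from C57BL/6 mice carrying HKP1, a lung adenocarcinoma line known to lack p53. The lungs were collected between 24 and 48 hours after the radiation, and the lungs of 3 to 4 mice were pooled into each library. The remaining 11 libraries had the same antibodies at 0 Gy (2 anti-PD-1, 3 IgG) or 8 Gy (3 anti-PD-1, 3 IgG), and they entered the fit to estimate the spread. RNA of tumour, resident lung and immune cells was measured together, so fewer cells of a type and less RNA per cell cannot be told apart. The labels do not say whether the pools were separate experiments, and p-values measure only the spread between these libraries.

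PD-1, encoded by Pdcd1, is a receptor on activated T cells. When it meets its ligands PD-L1 (Cd274) or PD-L2 (Pdcd1lg2) on tumour or myeloid cells it dampens signalling from the T cell receptor, and blocking antibodies lift that brake. Ionizing radiation breaks DNA, which stabilizes p53, halts dividing cells and raises p53 target genes. In the lung it reaches alveolar, airway, vascular and immune cells together with the tumour.

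The labelled tissue carried its defining markers in all 5 libraries. Sftpc, a surfactant protein of alveolar type 2 cells, stood at 6450, 6878 and 7161 CPM (the share of a library's reads, scaled up to a common total) with anti-PD-1 and at 3332 and 8848 CPM with IgG. Scgb1a1, the secretoglobin of airway club cells, stood at 6866, 6484 and 12300 CPM with anti-PD-1, above 5156 and 3712 CPM with IgG. Ager of alveolar type 1 cells ran between 584 and 628 CPM with anti-PD-1 and stood at 350 and 700 CPM with IgG. None of these passed the test (limma adjusted p of 0.723, 0.312 and 0.691).

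The libraries were not alike in depth. A read was worth 0.018, 0.0418 and 0.0319 CPM in anti-PD-1 replicates 1, 2 and 3, against 0.0185 and 0.0155 CPM in the IgG replicates, so replicates 2 and 3 were the shallower. Of 30095 genes, 6086 and 5315 had no reads there, while the other 14 libraries of the series each had 2273 to 3851 such genes. On the first principal component, which held 46.7% of the variance, they scored -81.5 and -98.3, and anti-PD-1 replicate 1 scored -46.8. The IgG libraries at 4 Gy scored -6.3 and -1.4. Replicates 2 and 3 are therefore called the outlying libraries here, and fold changes without them compare anti-PD-1 replicate 1 with the IgG pair.

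**Figure D1:**
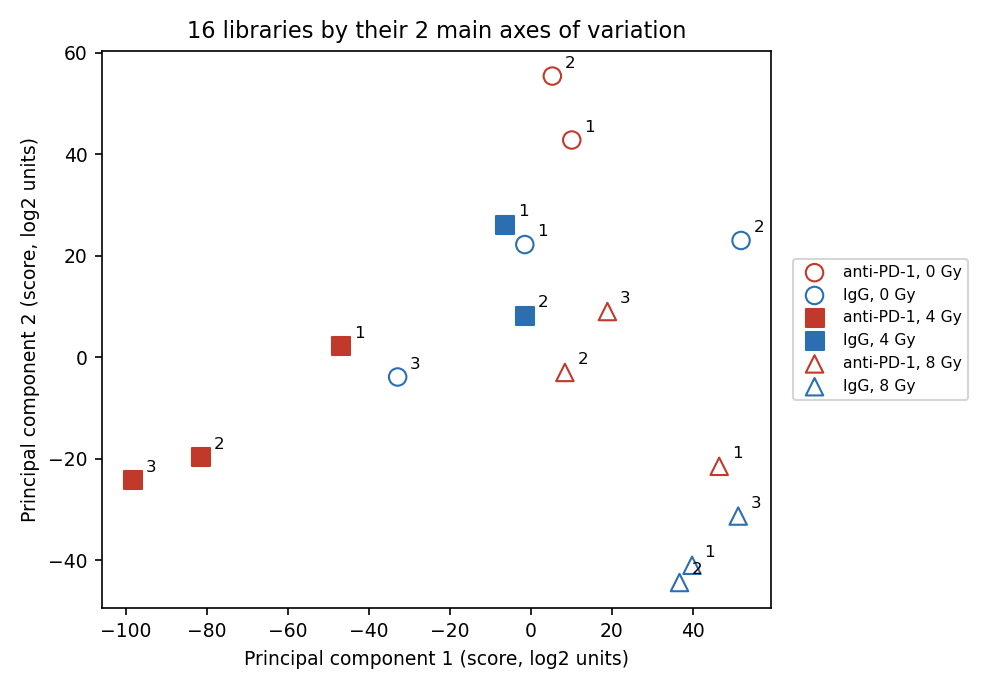
Scores of the 16 libraries on the 2 leading principal components of log2(CPM + 0.5), with anti-PD-1 in red, IgG in blue, filled squares for 4 Gy and replicate numbers beside the points. Anti-PD-1 replicates 2 and 3 at 4 Gy lie farthest left at -81.5 and -98.3, replicate 1 lies at -46.8, and the IgG libraries at 4 Gy lie near 0.

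Across the transcriptome, 2714 of 17546 tested genes passed an adjusted p of 0.05 (15.5%), of which 1210 were higher with anti-PD-1 (6.9%) and 1504 lower (8.57%). Of those that passed, 515 were more than 2-fold higher and 785 more than 2-fold lower. The groups did not overlap for many more: all 3 anti-PD-1 libraries lay above both IgG libraries for 27% of genes and below both for 25.8%. Among the 2714 genes that passed, 99.7% had all 3 anti-PD-1 libraries outside the IgG range on the side of the call. Such separation in a called gene below therefore adds nothing to its call. The lowest adjusted p was 0.03, so every call lay between 0.03 and 0.05. Without the outlying libraries 0 genes passed (limma, lowest adjusted p of 0.655, with 1166 genes at an unadjusted p under 0.05). All 2637 called genes that could be tested there had the same sign. Their choice largely fixed this, because the calls already rested on the same anti-PD-1 replicate 1 and IgG libraries. Replicate 1 lay outside the IgG range on the side of the call for 99.7% of called genes. Over all tested genes it lay outside on the side of the fold change for 67.9%. For the genes called higher, the median log2 fold change without the outlying libraries was 0.66 in place of 0.93. For those called lower it was -0.56 in place of -1.02. Leaving out either IgG library, or either outlying library alone, also left 0 genes, and leaving out anti-PD-1 replicate 1 left 5670. Fold changes below are given ± SE as differences of log2(CPM + 0.5), a scale on which genes of low level appear to change less than they did.

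GC content moved with the fold change. The median GC content of the longest annotated transcript was 54.8% among genes called higher and 43.5% among genes called lower, against 49.8% over all tested genes. The median transcript length was 2068 bases among genes called higher and 3895 bases among genes called lower. The median log2 fold change was -0.78 for genes under 40% GC and 0.48 for genes at 60% GC or more. The same medians were -0.37 and 0.34 without the outlying libraries, 0.35 and -0.16 at 0 Gy, and 0.08 and 0.15 at 8 Gy. The trend also varied from library to library. The Spearman correlation of GC content with a library's deviation from the mean of the others was 0.34, 0.573 and 0.537 for anti-PD-1 at 4 Gy. It was -0.197 and -0.146 for IgG at 4 Gy. Replicates of IgG at 0 Gy had 0.412, -0.344 and 0.352, and the libraries other than the outlying ones ran from -0.567 to 0.412. The part of GC content in the results was not tested beyond a fit that removes a smooth trend with GC content and length from each library. In that fit 1207 genes passed, 513 higher and 694 lower, and 870 of them were among the 2714.

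**Figure D2:**
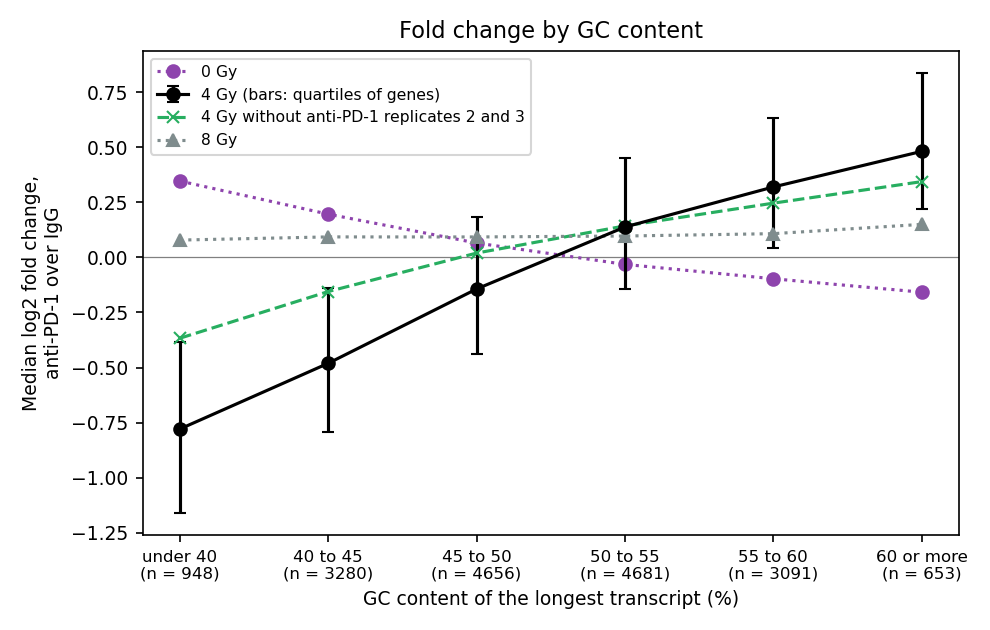
Median log2 fold change of anti-PD-1 over IgG for genes grouped by the GC content of their longest transcript, with n genes per group under the axis; bars on the 4 Gy line span the quartiles. At 4 Gy the medians run from -0.78 under 40% GC to 0.48 at 60% or more, while those at 8 Gy stay between 0.08 and 0.15.

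Genes of the endoplasmic reticulum stress response were lower in part with anti-PD-1. Of 18 members, 7 fell and 1 rose, above the 8.57% of all tested genes called lower, with a median log2 fold change of -0.33 against -0.02 over all tested genes. Hspa5, which encodes BiP, the chaperone that senses unfolded proteins in the endoplasmic reticulum, stood at 611, 426 and 353 CPM with anti-PD-1, against 1092 and 1199 CPM with IgG. The groups were far apart, and even the highest anti-PD-1 library, replicate 1, lay well under both IgG libraries. Hspa5 fell by 1.34 ± 0.23 on the log2 scale (limma adjusted p of 0.03), by 0.90 without the outlying libraries and by 1.10 with the GC and length adjustment.

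Dnajb9, the co-chaperone ERdj4 that binds BiP, fell to 10.1, 5.1 and 3.96 CPM with anti-PD-1, against 29.2 and 25.8 CPM with IgG, a log2 fold change of -2.12 ± 0.56 with a limma adjusted p of 0.0344. Canx, which encodes the lectin chaperone calnexin, fell to 311, 245 and 228 CPM with anti-PD-1, against 492 and 482 CPM with IgG, a log2 fold change of -0.91 ± 0.18. In both genes the 3 anti-PD-1 libraries lay below both IgG libraries, with replicate 1 the nearest to them. Hspa13, a chaperone of the same HSP70 family as BiP that is outside the list, was among the 5 falls with the lowest p. It stood at 16.5, 14.1 and 11.3 CPM with anti-PD-1, against 35.9 and 32.8 CPM with IgG, and its log2 difference of -1.28 was -0.64 after the GC and length adjustment. The remaining falls were Xbp1, a transcription factor of the unfolded protein response (-0.55 ± 0.16), Pdia4, a disulphide isomerase (-0.58 ± 0.19), Herpud1, of the degradation machinery (-0.53 ± 0.16), and Asns, asparagine synthetase (-1.04 ± 0.29). Herpud1, Pdia4 and Asns were chosen for naming after their values were seen.

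Atf4, the transcription factor that induces Asns in the amino acid response, went the other way. It stood at 220, 273 and 266 CPM with anti-PD-1, against 159 and 163 CPM with IgG, a log2 fold change of 0.64 ± 0.17 with a limma adjusted p of 0.0344. The members summed to 4271, 4234 and 4299 CPM with anti-PD-1, against 5677 and 6296 CPM with IgG, and the 2 ranges did not overlap. Abundant members such as Hspa5, itself called, weigh most in such a sum, so it is not separate evidence. With the GC and length adjustment 6 members fell and 0 rose, with a median of -0.44. The 6 were Hspa5, Dnajb9, Xbp1, Herpud1, Asns and Sdf2l1, the last of which was not called before the adjustment. In that fit Atf4 had a log2 difference of 0.27 (limma adjusted p of 0.184). Canx had one of -0.40 (limma adjusted p of 0.0831) and Pdia4 one of -0.55 (limma adjusted p of 0.0657), so neither kept its call. Without the outlying libraries 0 members passed and 14 of 18 had a negative fold change, as with all libraries, with a median of -0.29.

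Several genes of this list, most of which did not pass, share a promoter element. It is shown because ATF6 and XBP1 are known to act on this pathway through it. The endoplasmic reticulum stress element, CCAAT and CCACG with any 9 bases between them, was searched on both strands of RefSeq promoters (GRCm38.p6, 250 bases before to 50 after each start). It was found in 0.119% of 32851 promoters and in 6 of the 17 members of the list that had a promoter (Hspa5, Canx, Calr, Creld2, Hsp90b1 and Pdia6). The related element of ATTGG and CCACG with any 1 base between them does not overlap it in the members' promoters, and it was found in 0.0365% of promoters and in Herpud1 alone among the members. The stretches below run 5′ to 3′ on the gene's strand, with the element in capitals.
Hspa5, chr2:34772000-34772068, plus strand: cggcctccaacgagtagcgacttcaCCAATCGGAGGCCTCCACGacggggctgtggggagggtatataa
Canx, chr11:50325775-50325843, minus strand: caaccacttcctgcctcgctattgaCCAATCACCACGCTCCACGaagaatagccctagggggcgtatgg
Pdia6, chr12:17266466-17266534, plus strand: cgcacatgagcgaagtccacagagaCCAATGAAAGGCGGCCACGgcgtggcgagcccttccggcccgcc
Herpud1, chr8:94386352-94386412, plus strand: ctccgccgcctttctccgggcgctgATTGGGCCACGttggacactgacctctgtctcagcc
A match is a description of the letters in this window and not a measured binding site. Pdia6 and Hsp90b1 are named for the element, after their values were seen. Members with the element did not all pass: Hspa5 and Canx fell, while Pdia6, a disulphide isomerase, stood at 377, 397 and 405 CPM with anti-PD-1, against 506 and 526 CPM with IgG (-0.39 ± 0.16, limma adjusted p of 0.0942). Hsp90b1, the chaperone GRP94, had a log2 difference of -0.37 ± 0.15 (limma adjusted p of 0.084). Calr and Creld2 did not pass either. Among the members that fell, the element was found only in Hspa5 and Canx, and Dnajb9 and Xbp1 are not among its holders.

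**Figure D3:**
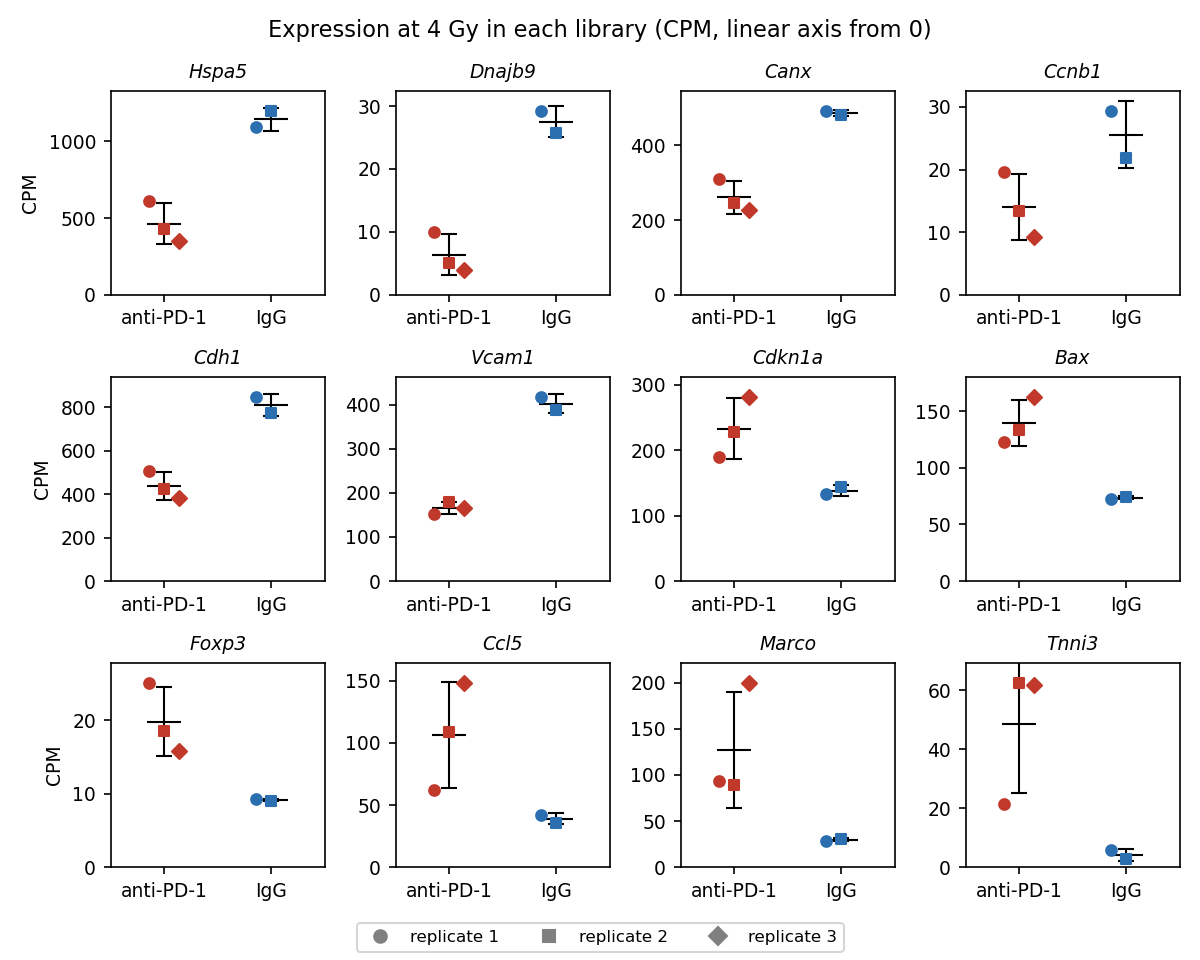
CPM of 12 genes in each library at 4 Gy, anti-PD-1 on the left and IgG on the right, on linear axes that start at 0; symbols mark replicates, horizontal marks the mean and bars the SD (n = 3 and 2). In each panel the anti-PD-1 and IgG points do not overlap, as in Hspa5, whose anti-PD-1 libraries lie between 353 and 611 CPM and whose IgG libraries lie at 1092 and 1199 CPM. All 12 genes were drawn from those that passed, of which 99.7% show such separation.

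Genes of mitosis and of DNA break repair were lower in part. Of 27 mitosis genes, 7 fell and 0 rose, a larger share than the 8.57% of all tested genes called lower, with a median log2 fold change of -0.26. Bub1, a kinase of the spindle checkpoint, fell to 16.8, 7.57 and 4.85 CPM with anti-PD-1, against 29.3 and 19.5 CPM with IgG, a log2 fold change of -1.43 ± 0.41. Ccnb1, the cyclin that drives entry into mitosis, fell to 19.6, 13.3 and 9.16 CPM with anti-PD-1, against 29.4 and 21.8 CPM with IgG (-0.89 ± 0.25). For both genes replicate 1 lay close under the lower IgG library, and replicates 2 and 3 lay farther away. The spindle genes Kif11 (-0.86 ± 0.22) and Nusap1 (-0.68 ± 0.17) fell likewise.

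Mki67, the proliferation marker, did not pass: it stood at 214, 178 and 138 CPM with anti-PD-1, against 222 and 194 CPM with IgG, and the groups overlapped. Its log2 difference of -0.26 ± 0.16 (limma adjusted p of 0.268) was 0.04 without the outlying libraries and 0.01 with the GC and length adjustment. With that adjustment 0 of the 27 mitosis genes passed. The transcripts of the 4 named mitosis genes that fell hold 41 to 44.1% GC.

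Of 26 DNA replication genes, 2 fell and 0 rose, a share under the 8.57% of all tested genes. Pcna, the sliding clamp of DNA polymerase, stood at 89.5, 77.3 and 57 CPM with anti-PD-1, against 119 and 104 CPM with IgG (-0.60 ± 0.19), and Rfc4, of the clamp loader, fell by 0.87 ± 0.26 on the log2 scale. Of 20 genes of DNA break repair, 3 fell and 0 rose, above that share, with a median of -0.48. These were Atm, the kinase that signals DNA breaks (-0.77 ± 0.24), Chek2, a checkpoint kinase it activates (-0.54 ± 0.17), and Lig4, the ligase of end joining (-0.79 ± 0.25). None of the 46 replication and repair genes passed with the adjustment for GC content and length or without the outlying libraries.

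Target genes of p53 were higher in part. Of 30 targets, 5 rose and 0 fell, a larger share than the 6.9% of all tested genes called higher. Their signs were mixed, with 16 positive and 14 negative fold changes (48.4% of all tested genes were positive) and a median of 0.06. Cdkn1a, the gene of the cyclin-dependent kinase inhibitor p21, rose to 189, 228 and 281 CPM with anti-PD-1, against 132 and 144 CPM with IgG, or 0.73 ± 0.19 on the log2 scale (limma adjusted p of 0.0333). Every anti-PD-1 library lay above both IgG libraries. Bax, a pore-forming mediator of apoptosis, rose to 123, 134 and 162 CPM with anti-PD-1, against 72.6 and 74.5 CPM with IgG (0.91 ± 0.18).

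Bbc3, the apoptosis gene that encodes PUMA, rose to 23.1, 28.7 and 23.7 CPM with anti-PD-1, against 10.6 and 9.57 CPM with IgG (1.27 ± 0.28). Its 3 anti-PD-1 values lay close together, and the fold change was 1.16 without the outlying libraries. Phlda3, a repressor of AKT signalling, rose by 0.91 ± 0.18, and Aen, an apoptosis-enhancing nuclease named after its values were seen, by 0.75 ± 0.23. Trp53 itself stood at 63.7, 53.7 and 72.9 CPM with anti-PD-1, against 50.7 and 49 CPM with IgG, and did not pass (0.33 ± 0.22, limma adjusted p of 0.289). With the GC and length adjustment 0 targets passed: Bax then had a log2 difference of 0.30 (limma adjusted p of 0.121), Phlda3 one of 0.32 (0.0621), Cdkn1a one of 0.40 (0.101), Bbc3 one of 0.62 (0.0683) and Aen one of 0.66 (0.0509). The transcripts of Bax, Bbc3 and Phlda3 hold 63.5%, 65.2% and 62.6% GC.

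PD-1 and its ligands did not pass. Pdcd1 stood at 13.1, 32.1 and 35.8 CPM with anti-PD-1, against 14.9 and 10.1 CPM with IgG. Replicates 2 and 3 were above both IgG libraries and replicate 1 lay between them. The log2 difference was 0.98 ± 0.48 (limma adjusted p of 0.148), and 0.09 without the outlying libraries. Cd274 stood at 78.7, 75.6 and 112 CPM with anti-PD-1, against 76.6 and 74.1 CPM with IgG (0.21 ± 0.20), and Pdcd1lg2 ran from 12.4 to 18.2 CPM with anti-PD-1 and stood at 10.6 and 14.8 CPM with IgG (0.25 ± 0.30). For both ligands the groups overlapped.

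Of the 18 other checkpoint and regulatory T cell genes, 2 rose and 0 fell, against 6.9% of all tested genes called higher. Foxp3, the transcription factor that defines regulatory T cells, rose to 25, 18.6 and 15.8 CPM with anti-PD-1, against 9.25 and 9.03 CPM with IgG, a log2 fold change of 1.05 ± 0.27 with a limma adjusted p of 0.0343. Replicate 1 was its highest library, and the fold change without the outlying libraries was 1.41. Tnfrsf4, the costimulatory receptor OX40, rose to 19.7, 20.5 and 24.1 CPM with anti-PD-1, against 10.9 and 9.81 CPM with IgG (1.01 ± 0.27). Neither passed after the GC and length adjustment, where Foxp3 had a log2 difference of 0.77 (limma adjusted p of 0.0793) and Tnfrsf4 one of 0.66 (limma adjusted p of 0.0748), and the 1 gene of the list that passed was Ctla4, an inhibitory receptor (1.25, limma adjusted p of 0.0434). The annotated span of Foxp3 overlaps Ccdc22, and no source used here says that strand was used in counting.

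T cell genes had mostly positive fold changes. Of 22 genes of the T cell receptor complex and its helpers, 2 rose and 0 fell, a share slightly above the 6.9% of all tested genes called higher, while 17 had a positive fold change, against 48.4% of all tested genes, and the median was 0.57. Their summed level was 717, 666 and 714 CPM with anti-PD-1, against 467 and 480 CPM with IgG, so the anti-PD-1 libraries lay close together and above both. Lat, the adaptor that relays the T cell receptor signal, rose to 29.6, 39.8 and 44.8 CPM with anti-PD-1, against 15.7 and 15.2 CPM with IgG (1.26 ± 0.34). Cd27, a costimulatory receptor, rose to 16.9, 24 and 21.9 CPM with anti-PD-1, against 8.91 and 8.53 CPM with IgG (1.20 ± 0.34).

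Of 18 cytotoxic effector genes 1 rose and 0 fell, a share under 6.9%, while 16 were positive and the median was 0.60. Their summed level was 381, 472 and 567 CPM with anti-PD-1, against 288 and 235 CPM with IgG. Ccl5, a chemokine of activated T and NK cells, rose to 62.3, 109 and 148 CPM with anti-PD-1, against 42.3 and 36 CPM with IgG (1.35 ± 0.43, limma adjusted p of 0.0482). The T cell coreceptor gene Cd8a stood at 37.9, 65.1 and 59.8 CPM with anti-PD-1, against 39.2 and 31.9 CPM with IgG, and the groups overlapped (limma adjusted p of 0.286). Gzmb, a granule protease, ran from 26.6 to 52 CPM with anti-PD-1 and stood at 22.4 and 19.9 CPM with IgG (0.72 ± 0.38, limma adjusted p of 0.187). Ifng, the cytokine interferon gamma, stood at 3.2, 7.9 and 20.2 CPM with anti-PD-1, against 3.96 and 2.46 CPM with IgG. Its log2 difference was 1.25 ± 0.64 (limma adjusted p of 0.169), and 0.03 without the outlying libraries. In the T cell and cytotoxic lists 0 genes passed with the GC and length adjustment, with medians of 0.50 and 0.74.

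No gene of the interferon lists rose. Of 29 genes of the type I response 1 fell, a share under the 8.57% of all tested genes, 0 rose and 21 had a negative fold change, with a median of -0.31 that was 0.01 without the outlying libraries. Ifit1, an antiviral RNA-binding protein, fell to 26.4, 12.6 and 10.6 CPM with anti-PD-1, against 36 and 38.4 CPM with IgG (-1.25 ± 0.33). Of 25 genes of the interferon gamma response and MHC class I, 2 fell and 0 rose, again under that share, although 18 were positive and the median was 0.22. Without the outlying libraries that median was -0.21.

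B2m, the light chain of MHC class I, fell to 1866, 1534 and 1659 CPM with anti-PD-1, against 2894 and 3175 CPM with IgG (-0.85 ± 0.19, limma adjusted p of 0.0316). The 3 anti-PD-1 libraries were close to each other, and the difference was -0.70 without the outlying libraries. With the GC and length adjustment it was -0.38 (limma adjusted p of 0.23). Tgtp1, an interferon-inducible GTPase with a near-identical copy that may share its reads, fell by 0.79 ± 0.22. No gene of the interferon lists passed after that adjustment.

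Among the myeloid lists, only that of alveolar macrophages had more than 1 gene that passed. Of 12 alveolar macrophage genes 3 rose and 0 fell, against 6.9% of all tested genes called higher. Marco, a scavenger receptor, rose to 93.3, 88.5 and 199 CPM with anti-PD-1, against 28.9 and 30.8 CPM with IgG, a log2 fold change of 1.97 ± 0.38 with a limma adjusted p of 0.03, and of 1.63 both without the outlying libraries and with the GC and length adjustment. Krt79, a keratin, rose by 1.40 ± 0.35 and Fabp1, a fatty acid carrier, by 1.25 ± 0.38. The summed level of the 12 genes was 1686, 1195 and 1532 CPM with anti-PD-1, against 1361 and 1333 CPM with IgG, and these ranges overlapped.

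Of 21 monocyte and macrophage genes, 1 fell and 0 rose, a share under the 8.57% of all tested genes called lower. It was the chemokine gene Ccl12 (-0.87 ± 0.23). Among 16 suppressive myeloid genes 1 rose and 0 fell, a share under the 6.9% of all tested genes called higher. Cebpb, a transcription factor of myeloid cells, reached 28.7, 55.3 and 52.3 CPM with anti-PD-1, against 15.1 and 13.8 CPM with IgG (1.56 ± 0.31). After the GC and length adjustment its log2 difference was 0.87, and it also passed. Among 19 inflammatory cytokines 1 fell, again under the 8.57% called lower, and 0 rose. This was Il33, an alarmin of epithelial and endothelial cells, at 54.1, 51.8 and 41 CPM with anti-PD-1, against 92.1 and 89.2 CPM with IgG (-0.89 ± 0.19). Vcam1, the endothelial adhesion molecule for leukocytes, fell to 151, 178 and 166 CPM with anti-PD-1, against 417 and 388 CPM with IgG (-1.28 ± 0.23). Its anti-PD-1 libraries were close together, and the difference was -1.41 without the outlying libraries. After the GC and length adjustment Vcam1 had a log2 difference of -0.66 and did not pass (limma adjusted p of 0.123), and Il33 (-0.50, limma adjusted p of 0.0583) and Ccl12 (-0.46, limma adjusted p of 0.172) did not pass either.

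Ciliated cell genes had mostly positive fold changes. Of 15 genes 2 rose and 0 fell, against 6.9% of all tested genes called higher, and 13 were positive, against 48.4% of all tested genes. The median of 1.16 was 0.96 without the outlying libraries and 1.03 after the GC and length adjustment, where 0 genes of the list passed. Cfap126 and Rsph1, both of the cilium, rose by 1.51 ± 0.41 and 1.82 ± 0.57, and had adjusted p of 0.0509 and 0.0822 after the GC and length adjustment (limma). Among the 10 largest rises Cfap100, another cilium gene, reached 31.4, 96.5 and 121 CPM with anti-PD-1, against 9.22 and 4.42 CPM with IgG (3.38 ± 0.89). Lrrc23, of the radial spoke, reached 57.7, 123 and 154 CPM with anti-PD-1, against 17.3 and 8.79 CPM with IgG (3.01 ± 0.85). After the GC and length adjustment Cfap100 passed (limma adjusted p of 0.0483) and Lrrc23 did not (0.056). In both genes replicate 1 lay between the IgG libraries and the outlying ones.

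Of 17 club cell genes 1 rose and 0 fell, a share under the 6.9% of all tested genes, with 12 positive and a median of 0.73 that was 0.38 after the GC and length adjustment. Scgb3a1, a secretoglobin of airway secretory cells, rose to 317, 393 and 715 CPM with anti-PD-1, against 128 and 95 CPM with IgG (2.02 ± 0.57, limma adjusted p of 0.039), and after that adjustment it did not pass (1.73, limma adjusted p of 0.065). Its relative Scgb3a2 stood at 976, 767 and 1094 CPM with anti-PD-1, against 620 and 357 CPM with IgG, without overlap, and did not pass (0.99 ± 0.58, limma adjusted p of 0.229). None of the 14 alveolar type 2 and 15 alveolar type 1 genes passed. After the GC and length adjustment 1 of them passed, the type 2 gene Abca3 (-0.49, limma adjusted p of 0.03985), and 11 of the 14 type 2 genes were negative. Of 21 endothelial genes 18 were positive (median 0.57) and 1 fell, Prox1, the master regulator of lymphatic endothelium, and of 18 fibroblast and matrix genes 1 fell, the elastic fibre gene Fbln5. Neither passed after the GC and length adjustment (limma adjusted p of 0.0923 for Prox1 and 0.0601 for Fbln5), and both counts lie under the 8.57% of all tested genes.

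Of 16 epithelial and tumour genes, 3 fell and 0 rose, against 8.57% of all tested genes called lower. Cdh1, the epithelial adhesion molecule E-cadherin, fell to 505, 423 and 381 CPM with anti-PD-1, against 845 and 774 CPM with IgG (-0.90 ± 0.22), and it passed with the GC and length adjustment too (-0.97, limma adjusted p of 0.0413). Met, a growth factor receptor, fell by 0.95 ± 0.24 and Hmga2, a chromatin protein of embryonic and tumour cells, by 1.34 ± 0.39, and neither passed with that adjustment (-0.61 with a limma adjusted p of 0.0707 for Met and -1.10 with one of 0.0623 for Hmga2). The median of the 16 genes was 0.01, and their summed level was 2339, 2740 and 2667 CPM with anti-PD-1, against 2807 and 2821 CPM with IgG.

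Heart muscle genes were higher in part. Of 11 cardiac genes 8 reached the level needed for the test (Nppb, Pln and Myl2 did not), and 4 of these rose and 0 fell, against 6.9% of all tested genes called higher. The summed level of the 8 tested genes was 56.2, 107 and 115 CPM with anti-PD-1, against 28.5 and 30.4 CPM with IgG. Tnni3, cardiac troponin I, rose to 21.5, 62.3 and 61.8 CPM with anti-PD-1, against 5.72 and 2.87 CPM with IgG (3.27 ± 0.66), and it was among the 10 largest rises. Its annotated span overlaps Dnaaf3, a gene needed to assemble motile cilia. Myh6, the cardiac myosin heavy chain, rose by 2.35 ± 0.58, and the myosin light chains Myl7 and Myl4 by 1.54 ± 0.42 and 1.38 ± 0.40. The count of 4 was 2 after the GC and length adjustment, where Myl7 (limma adjusted p of 0.0885) and Myl4 (0.0601) did not pass, and 1 with a pseudocount of 0.1 in place of 0.5. Haemoglobin transcripts made up 1.56, 1.54 and 2.99% of the CPM with anti-PD-1, against 0.522 and 0.99% with IgG (exact two-sided permutation p of 0.2, the smallest that 3 libraries against 2 allow). Of 30 cytosolic ribosomal protein genes 9 rose and 0 fell, with a median of 0.38, and 3 rose with the GC and length adjustment. The part of heart muscle, blood and ribosomal protein transcripts in the other differences was not tested.

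**Figure D4:**
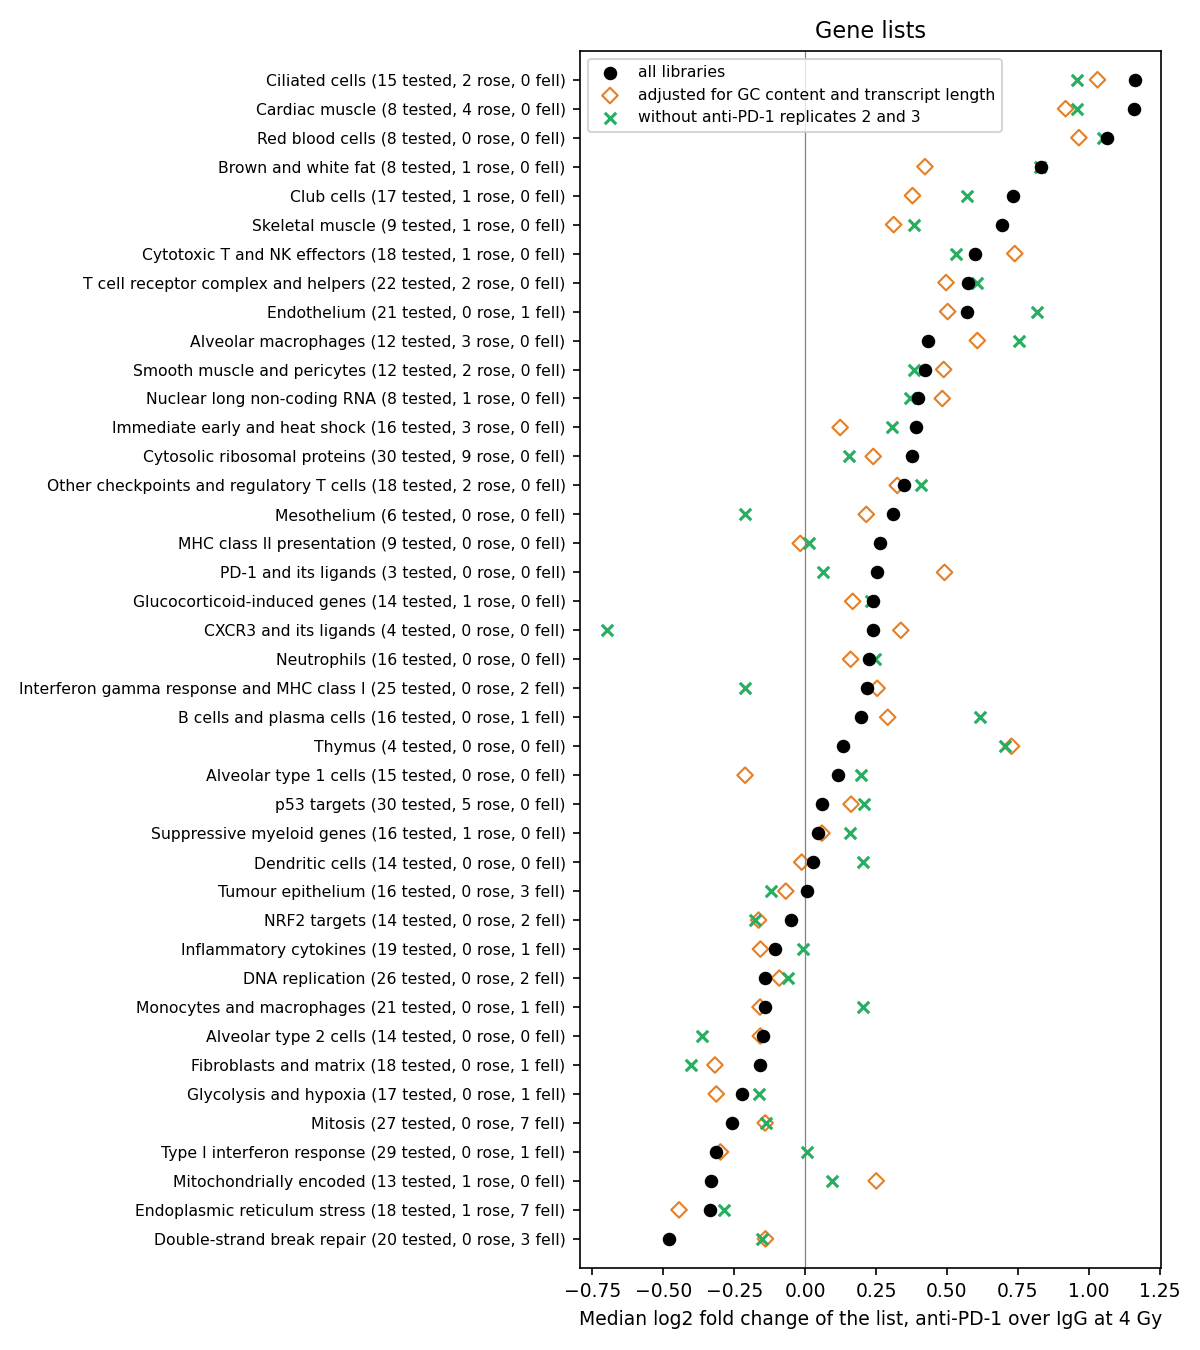
Median log2 fold change of anti-PD-1 over IgG at 4 Gy for each gene list, with all libraries (black), after adjustment for GC content and transcript length (orange) and without the outlying libraries (green crosses); labels give the genes tested and those that rose or fell. Ciliated cell and cardiac genes lie highest, both at 1.16, and DNA break repair lies lowest at -0.48.

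Among all genes, Endog, a mitochondrial nuclease, was among the largest rises, at 14.7, 47.9 and 57 CPM with anti-PD-1, against 3.62 and 3.03 CPM with IgG (3.19 ± 0.57). Its span overlaps Spout1. The mitochondrial gene mt-Atp8, which shares bases with mt-Atp6, stood at 51.7, 240 and 263 CPM with anti-PD-1, against 5.32 and 35.5 CPM with IgG (3.36 ± 0.99), and replicate 1 lay near the higher IgG library. The other 12 mitochondrially encoded genes did not pass. Wdr95 rose by 2.88 ± 0.65.

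The rises with the lowest p were smaller and steadier. Polr3gl, a subunit of RNA polymerase III, rose to 34.7, 43.6 and 41 CPM with anti-PD-1, against 17.4 and 14.2 CPM with IgG (1.30 ± 0.20). Ypel3 reached 80.3, 94 and 107 CPM with anti-PD-1, against 46 and 37.8 CPM with IgG, and Cdk9, the kinase that releases paused RNA polymerase II, reached 119, 154 and 150 CPM with anti-PD-1, against 79.8 and 72.9 CPM with IgG. In these genes all 3 anti-PD-1 libraries stood apart from the IgG pair, replicate 1 included, as in 99.7% of all called genes. Genes chosen for a low p are steady by that choice. All 3 genes also passed after the GC and length adjustment, where the log2 difference of Ypel3 was 0.64 in place of 1.15. Acaa1b, a peroxisomal thiolase with a close paralogue that may share its reads, rose by 1.96 ± 0.31, and Coro6, a coronin, by 2.20 ± 0.36. The long non-coding RNA Meg3 rose by 1.86 ± 0.35.

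Mmp12, the macrophage elastase, was among the largest falls, at 58.2, 19.5 and 14.2 CPM with anti-PD-1, against 132 and 330 CPM with IgG (-3.01 ± 0.70, limma adjusted p of 0.0318). The IgG libraries differed from each other by more than 2-fold, and every anti-PD-1 library was below both. Tmigd1 stood at 2.16, 1.38 and 0.128 CPM with anti-PD-1, against 10.3 and 13.8 CPM with IgG, and Serpina7, thyroxine-binding globulin, at 4.52, 1.21 and 1.15 CPM with anti-PD-1, against 15.8 and 14.9 CPM with IgG. Ugt2b35, one of several similar glucuronosyltransferases that may share reads, fell by 2.67 ± 0.64, and Cacna2d1, a calcium channel subunit, by 2.43 ± 0.52. Among the falls with the lowest p were Itgav, the integrin alpha V chain (-0.99 ± 0.18), Tgoln1, of the trans-Golgi network (-1.18 ± 0.21), and Dcbld1 (-1.20 ± 0.22). After the GC and length adjustment Itgav had a log2 difference of -0.51 and passed, while Tmigd1 and Serpina7 did not (limma adjusted p of 0.0525 each).

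**Figure D5:**
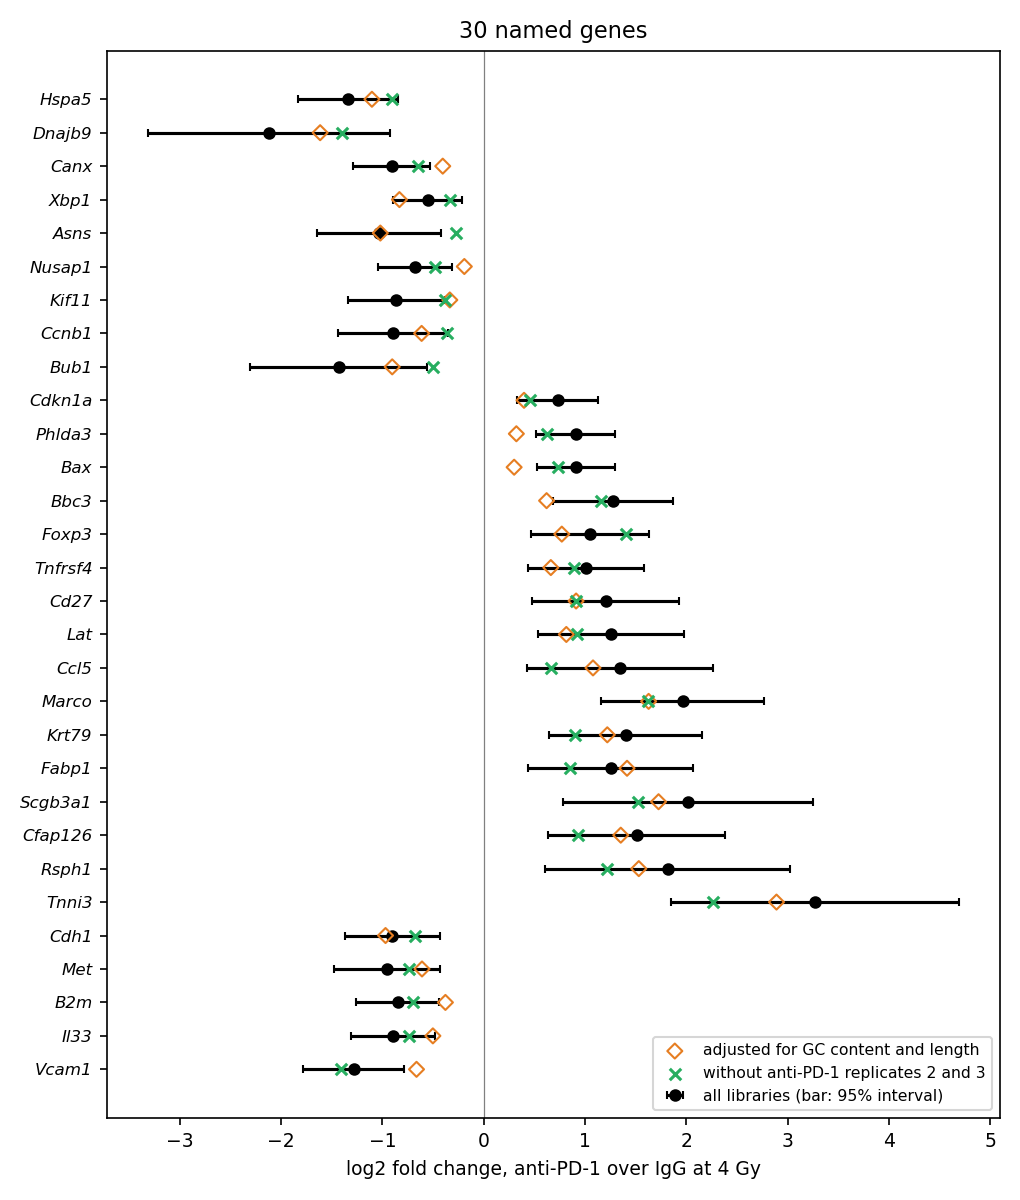
Log2 fold change of anti-PD-1 over IgG at 4 Gy for 30 named genes with its 95% interval (black), the same after adjustment for GC content and transcript length (orange) and without the outlying libraries (green crosses). The 3 estimates of each gene lie on the same side of 0, as for Hspa5 (-1.34, -1.10 and -0.90) and Marco (1.97, 1.63 and 1.63). This follows from the choice of genes: all 30 had passed, and the estimates share libraries. Named genes whose sign reversed had not passed and are not drawn.

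Few genes passed between the antibodies at the other doses. At 0 Gy 48 passed (0.274%), and at 8 Gy 1 passed (0.0057%), with 2185 at an unadjusted p under 0.05 (12.5%). Hspa5 averaged 749 ± 77.3 CPM with anti-PD-1 (SD, n = 2) and 671 ± 102 CPM with IgG (n = 3) at 0 Gy. At 4 Gy it averaged 464 ± 133 CPM with anti-PD-1 (n = 3) and 1145 ± 75.2 CPM with IgG (n = 2), and at 8 Gy 824 ± 107 CPM with anti-PD-1 and 738 ± 170 CPM with IgG (n = 3 each). Of the 6 groups, IgG at 4 Gy had the highest mean and anti-PD-1 at 4 Gy the lowest. Vcam1 averaged 409 ± 121 CPM with anti-PD-1 and 295 ± 72.5 CPM with IgG at 0 Gy, 165 ± 13.7 CPM with anti-PD-1 and 403 ± 20.6 CPM with IgG at 4 Gy, and 385 ± 30.9 CPM with anti-PD-1 and 251 ± 60.2 CPM with IgG at 8 Gy. Its mean was lower with anti-PD-1 than with IgG at 4 Gy and higher at the other doses. Not all differences were confined to 4 Gy. The median log2 fold change of the ciliated cell genes was 1.22 at 8 Gy and 0.72 at 0 Gy. For the club cell genes it was 0.68 and 0.34, and Scgb3a2 had 1.87 ± 0.52 at 8 Gy (limma adjusted p of 0.217). For the T cell receptor complex and its helpers the median was -0.24 at 8 Gy and -0.49 at 0 Gy. No gene of these lists passed at either dose.

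The test of the difference itself gave 0 genes for the antibody effect at 4 Gy minus that at 8 Gy (limma, lowest adjusted p of 0.0604, with 4801 genes, or 27.4%, at an unadjusted p under 0.05). For 4 Gy minus 0 Gy it gave 1593 genes (9.08%), and 0 without the outlying libraries or with the GC and length adjustment. Cd274 was among the 1593: at 0 Gy it averaged 29.9 ± 3.37 CPM with anti-PD-1 (n = 2) and 57.9 ± 5.21 CPM with IgG (n = 3), and its antibody effect was 1.15 ± 0.28 higher at 4 Gy on the log2 scale (limma adjusted p of 0.0398). Cdkn1a averaged 52.6 ± 7.03 CPM with anti-PD-1 and 49.4 ± 11.8 CPM with IgG at 0 Gy, 233 ± 46.1 CPM with anti-PD-1 and 138 ± 8.45 CPM with IgG at 4 Gy, and 130 ± 5.23 CPM with anti-PD-1 and 189 ± 12.3 CPM with IgG at 8 Gy. Its antibody effect did not pass the test of either difference (limma adjusted p of 0.0604 against 8 Gy and 0.118 against 0 Gy).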

How the data were processed

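RNA of ground lungs was extracted with a column kit and made into libraries with an Illumina TruSeq kit, per the labels' protocols. STAR and Partek on mm10 are named in the submitters' processing notes; for their versions, the annotation, the counting settings and strandedness, the entry is: not given in the sources used here. The deposited CPM values cover 30095 genes in 16 libraries, and the authors had added 1e-04 to every value, which was subtracted here. Dates had replaced 25 gene symbols, of which 23 were restored by position in GENCODE M21. The worth of 1 read, taken from the most frequent low value in each library, was 0.0155 to 0.0418 CPM. A floor of 3 reads was at most 0.125 CPM and covers counting error only. Between 60.1 and 63.1% of low values were whole reads within 0.02, so no count model was used.

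R 4.3.3 with limma 3.58.1 and version 1.17.8 of data.table was used to test log2(CPM + 0.5), with trend and robust empirical Bayes and 10 residual degrees of freedom. A gene was tested if 2 or more libraries held at least 1 CPM of it, which left 17546. The 6 group means were fitted once over the 16 libraries, with Benjamini-Hochberg adjustment over all tested genes and a threshold of 0.05. GC content and length come from the longest GENCODE M21 transcript, and promoters from RefSeq. Permutation tests used scipy 1.17.1. Replicate numbers recur across groups, and nothing in the labels says that they pair libraries.

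The comparison and the 41 gene lists (652 symbols, 650 present) were chosen with earlier results of these data known. Named genes were the 10 largest changes and the 5 lowest p in each direction among genes that passed, averaged at least 1 on the log2 scale and carry an informative symbol. Others were up to 4 members of each list by p, whatever their level or call, up to 5 by p in each direction for the dose differences, and a few always. Alternatives were other normalizations, pseudocounts, filters and fits, a replicate block, and leaving out libraries. The GC and length adjustment, and the list counts without the outlying libraries, were added after the data were seen.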

Additional observations from a re-analysis of the deposited data

Results flagged for a closer look

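The antibody effect at 4 Gy differed from that at 0 Gy for 1593 genes in a limma test of the difference itself (adjusted p under 0.05). Of these, 69.3% were also called at 4 Gy. Most genes named in the text were chosen by their 4 Gy result, which is part of this difference, so the values are not separate evidence. They are given here as the effect at 4 Gy minus the effect at 0 Gy on the log2 scale. Among stress genes the differences were -1.51 for Hspa5, -2.73 for Dnajb9, -0.98 for Canx, -1.08 for Herpud1, -1.64 for Asns, -1.67 for Hspa13, -2.22 for Slc7a11 and 1.19 for Ier2. Among p53 targets they were 1.22 for Bax, 1.60 for Bbc3 and 1.18 for Phlda3. Among genes of division, replication and repair they were -1.60 for Ccnb1, -2.02 for Bub1, -1.39 for Kif11, -1.03 for Nusap1, -1.45 for Rfc4 and -0.90 for Chek2. Among immune genes they were 1.15 for Cd274, 2.00 for Cd27, 1.86 for Lat, -0.93 for B2m, 2.47 for Marco, 1.78 for Cebpb, -1.10 for Il33 and -1.76 for Vcam1. Among muscle and epithelial genes they were 3.44 for Tnni3, -1.19 for Cdh1 and -1.30 for Met. Among the remaining genes with large or low-p changes they were 3.00 for Endog, 1.21 for Polr3gl, 1.79 for Acaa1b, 1.27 for Ypel3, 1.76 for Coro6, 0.83 for Cdk9, -4.15 for Tmigd1, -3.42 for Ugt2b35, -3.41 for Cacna2d1, -1.34 for Tgoln1, -1.32 for Itgav and -1.37 for Dcbld1. Without anti-PD-1 replicates 2 and 3 at 4 Gy, or with the GC and length adjustment, 0 genes passed this test. The part of these libraries in each difference was not tested further, and no group was large enough to test for a sample far from the others.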

How the results depend on the processing

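The 2714 calls at 4 Gy became 3338 with quantile normalization, 2918 with equal library medians, 1506 with no filter on low values (754 higher, 752 lower), 1497 with only the 5 libraries compared (614 lower), 1207 with the GC and length adjustment (513 higher, 694 lower) and 0 without both outlying libraries. Leaving out 1 library gave 0 to 5670 calls (0 to 2045 higher, 0 to 3625 lower). It gave 0 without either IgG library or anti-PD-1 replicate 2 or 3 at 4 Gy, 5670 without anti-PD-1 replicate 1, 1639 and 4179 without IgG replicates 1 and 2 at 0 Gy, and 1205 and 1362 without replicate 2 of IgG and of anti-PD-1 at 8 Gy. The cause was not tested.

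Deviations of same-numbered libraries at 4 Gy had correlations of 0.00194 and 0.123. With 2 IgG libraries both values rest on the same difference, so they do not settle whether the numbers pair libraries, and the labels do not say that they do. With a replicate block 0 genes passed at 4 Gy (limma, lowest adjusted p of 0.0853, 5134 genes at an unadjusted p under 0.05), 30 at 0 Gy and 1 in the difference between 4 and 0 Gy.

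At 8 Gy the 1 call became 8 with quantile normalization, 13 with equal medians, 6 with a pseudocount of 1, 26 with only its groups, 27 with the GC and length adjustment, and 0 with no filter or without the outlying libraries. At 0 Gy the 48 calls became 97 with no filter and 0 with only its groups. Each ran from 0 to 95 with 1 library left out. The difference between 4 and 8 Gy gave 1535 genes with only the groups compared, and 0 to 3380 with 1 library left out. The difference between 4 and 0 Gy gave 2591 with quantile normalization, 414 with no filter, 0 with only its groups, without the outlying libraries or with the GC and length adjustment, and 0 to 4809 with 1 library left out.

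Among named genes, 30 of 80 called kept their call with the GC and length adjustment, 49 with no filter, 56 with only the groups compared, 71 with a pseudocount of 0.1, and 0 with the replicate block or with the outlying libraries left out. Reversed signs occurred only in genes that did not pass. With that adjustment Mki67 had 0.01002, Hsp90b1 0.07673, Sftpc -0.01367 and Ager -0.217. Leaving out 1 library, of which IgG replicate 1 at 4 Gy turned the sign, gave -0.375 to 1.03 for Sftpc and -0.216 to 0.782 for Ager, and without the outlying libraries Mki67 had 0.04319 and Pdcd1lg2 -0.01111. The shallowest library limits detection under 0.125 CPM.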

Other observations

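Further gene groups were measured at 4 Gy, where 8.57% of all tested genes were called lower and 6.9% higher. Of 14 targets of NRF2, the factor that induces antioxidant genes, 2 fell and 0 rose. Slc7a11, the cystine importer, stood at 16.6, 5.27 and 4.15 CPM with anti-PD-1, against 32.6 and 24.4 CPM with IgG (-1.90 ± 0.44, limma adjusted p of 0.0319, and -0.75 without the outlying libraries). Gclm, the modifier of glutathione synthesis, stood at 45.5, 38.7 and 41.4 CPM with anti-PD-1, against 61.6 and 62.5 CPM with IgG (-0.57 ± 0.17). After the GC and length adjustment Slc7a11 passed (-1.23, limma adjusted p of 0.0432), while the difference in Gclm was -0.01 (limma adjusted p of 0.978). Every anti-PD-1 library lay below both IgG libraries for these genes. Of 17 glycolysis and hypoxia genes 1 fell, Ero1l, an oxidase of the endoplasmic reticulum, at 37.1, 21.9 and 22.9 CPM with anti-PD-1, against 80 and 59.8 CPM with IgG (-1.37 ± 0.39). It did not pass after the GC and length adjustment (-0.82, limma adjusted p of 0.0628).

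Of 16 immediate early and heat shock genes 3 rose, and 14 had a positive fold change (median 0.39). Jun, a subunit of AP-1, stood at 69.1, 78.7 and 92.5 CPM with anti-PD-1, against 41.2 and 50.2 CPM with IgG (0.80 ± 0.23). Ier2 rose by 0.71 ± 0.23 and Zfp36, which destabilizes cytokine messages, by 0.74 ± 0.24. With the GC and length adjustment 0 of the 16 passed, with a median of 0.12, and with a pseudocount of 0.1 in place of 0.5 the 3 calls became 1. Per1, a clock gene induced by glucocorticoids, was the 1 of 14 glucocorticoid-induced genes that rose, at 81, 61.7 and 104 CPM with anti-PD-1, against 42.5 and 34.6 CPM with IgG (1.06 ± 0.31), and its fold change was 1.07 without the outlying libraries and 0.68 with the adjustment, where it did not pass (limma adjusted p of 0.16). At 0 Gy the antibody difference of Per1 was 1.07 ± 0.31 (limma adjusted p of 0.179), and 2 genes of this list rose there.

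Of 12 smooth muscle and pericyte genes 2 rose, Des, the muscle filament desmin (1.30 ± 0.41), and Lmod1, an actin nucleator at 0.481 to 1.71 CPM over the 5 libraries (0.76 ± 0.23). Low-level markers of other tissues included Tnnt3, 1 of 9 skeletal muscle genes (1.14 ± 0.36), and Cidec, 1 of 8 fat genes (0.82 ± 0.25). At 0 Gy Tnnt3 had a log2 difference of 1.73 ± 0.36 (limma adjusted p of 0.0645), and 3 skeletal muscle genes rose there. Des, Lmod1, Tnnt3 and Cidec did not pass at 4 Gy after the GC and length adjustment, and no smooth muscle gene passed with a pseudocount of 0.1. Of 16 B and plasma cell genes Xbp1 alone fell. No gene passed among 9 of MHC class II presentation (median 0.26), 4 of CXCR3 and its ligands (median 0.24, and -0.70 without the outlying libraries), 16 of neutrophils (median 0.23), 14 of dendritic cells (median 0.03), 6 of mesothelium (median 0.31), 4 of thymus (median 0.13) and 8 of red blood cells (median 1.06).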
